A study of Mus musculus with 18 samples.

Results

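The amino acid synthesis and transport genes described here are 10 genes whose products make serine, glycine, asparagine and proline or carry amino acids across the plasma membrane. They were chosen by symbol from a table of 21859 protein-coding genes, as Phgdh, Psat1, Psph, Shmt2, Mthfd2, Asns, Aldh18a1, Pycr1, Slc7a11 and Slc3a2. All 10 symbols were found, each once. The promoter upstream transcripts (PROMPTs) listed under the same 10 symbols were taken from a second table of 32253 PROMPTs. A PROMPT is a short, quickly degraded RNA that starts close to the start of a gene and runs away from it on the opposite strand.

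Nascent RNA was measured by transient transcriptome sequencing (TT-seq), in which RNA made during 5 min of 4-thiouridine is isolated and sequenced. The 18 libraries came from E14 mouse embryonic stem (ES) cells, 3 from each of 6 groups. All cells, the untagged ones included, carried osTIR1, the plant F-box protein that lets auxin trigger the degradation of a tagged protein, and the methods place it at the Rosa26 locus. The untagged cells, SPT16_AID_V5 clone 1 and SPT16_AID_V5 clone 2 were each kept for 24 h in 0.1% EtOH or in 3-IAA, the auxin 3-indole acetic acid. In both clones SPT16, a subunit of the histone chaperone FACT, bore the degron and V5 tag on all copies of the gene, and each clone is a line grown from a single cell. In the methods the clones count as biological replicates, and the 3 libraries of a group as technical ones. The medium held serum, glutamine, LIF, inhibitors of GSK3 and MEK and a supplement of non-essential amino acids, which commonly contains asparagine, serine, glycine and proline.

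For each feature the authors deposited a baseMean, the mean over libraries of the read count after scaling for depth. This mean covers control and SPT16-depleted libraries alike. It holds no value per library or per group, so the levels below are levels over the study as a whole, with no group compared. Differences between conditions were not analysed here. The intervals given are 95% counting intervals, which cover counting error only and leave out the spread between libraries, which is not known from a mean. Reads without molecular identifiers are also not independent molecules.

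Serine is made from a glycolytic intermediate in 3 steps, by Phgdh, Psat1 and Psph in turn. In mitochondria Shmt2 then splits serine into glycine and a carbon unit carried on folate, which Mthfd2 oxidises for use in purine and thymidylate synthesis. Asns makes asparagine from aspartate and glutamine, and Aldh18a1 and Pycr1 turn glutamate into proline. Slc3a2 is the heavy chain that brings several light chains to the plasma membrane, among them Slc7a5, which carries large neutral amino acids, and Slc7a11, which takes up cystine in exchange for glutamate. Many of these genes are known targets of ATF4, a transcription factor made when amino acids run short, which binds DNA with C/EBP partners at composite amino acid response elements.

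Letters of that composite element, TGATGNAA, were searched on both strands around the RefSeq starts of the 10 genes on GRCm38.p6. They are shown as a description of sequence. Many of the genes are known ATF4 targets, so a share of matches above that of all promoters is not independent of their choice. From 250 bases before to 50 bases after the start, 3 of 10 genes held a match, Asns, Pycr1 and Slc7a11. Counted by promoter, 3 of 11 member promoters did, beside 3.97% of 32851 promoters of the same length. Slc7a11 had 2 matches, which 0.0700% of all promoters reached or passed. The matched letters are in capitals in the 30 bases around each, read on the strand of the gene. For the second match of Slc7a11 the letters lie on the opposite strand.
Asns, 23 bases before the start, chr6:7693214-7693243: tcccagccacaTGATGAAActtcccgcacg
Pycr1, 103 bases before the start, chr11:120643833-120643862: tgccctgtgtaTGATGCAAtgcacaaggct
Slc7a11, 66 bases before the start, chr3:50443661-50443690: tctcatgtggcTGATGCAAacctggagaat
Slc7a11, 47 bases before the start, chr3:50443642-50443671: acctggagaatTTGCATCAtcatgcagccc

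In a wider window of 2000 bases centred on the start, 8 of 10 genes held the letters, and by symbol 25.4% of 27025 genes did. Restricted to 13723 genes that reached a baseMean of 1, the share was 21.6%. The 5 genes that entered with the wider window, Phgdh, Psat1, Shmt2, Mthfd2 and Aldh18a1, all had their matches after the start, in annotated introns, with bases counted from 1 at the start to the first matched letter. They are shown for comparison with the promoter matches. For the last 2 sequences, from Shmt2 and Aldh18a1, the letters lie on the opposite strand.
Phgdh, at base 744, chr3:98339208-98339237: cgccttttgtcTGATGCAAgaccttggcgc
Psat1, at base 780, chr19:15923825-15923854: tactattgctgTGATGAAAcactgtggcca
Shmt2, at base 481, chr10:127521946-127521975: agctatggagaTGATGCAAccgagcctcag
Mthfd2, at base 418, chr6:83317169-83317198: ttgctgcagtcTGATGAAAtctgtgagccg
Shmt2, at base 503, chr10:127521924-127521953: agcctcagtacTTTCATCAcgcaagggtcc
Aldh18a1, at base 885, chr19:40587561-40587590: cctttgggcttTTGCATCAcctgtctggtt

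Shmt2 and Slc7a11 thus each had a pair of matches in opposite orientation within a short stretch. A second match in the wider window occurred at 3.69% of all promoters. Psph and Slc3a2 held no match, which says only that these letters are not in the window. Psat1 has 2 RefSeq starts, and its match lies after the inner of them. A match to letters is a description of sequence and shows no binding.

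**Figure D1:**
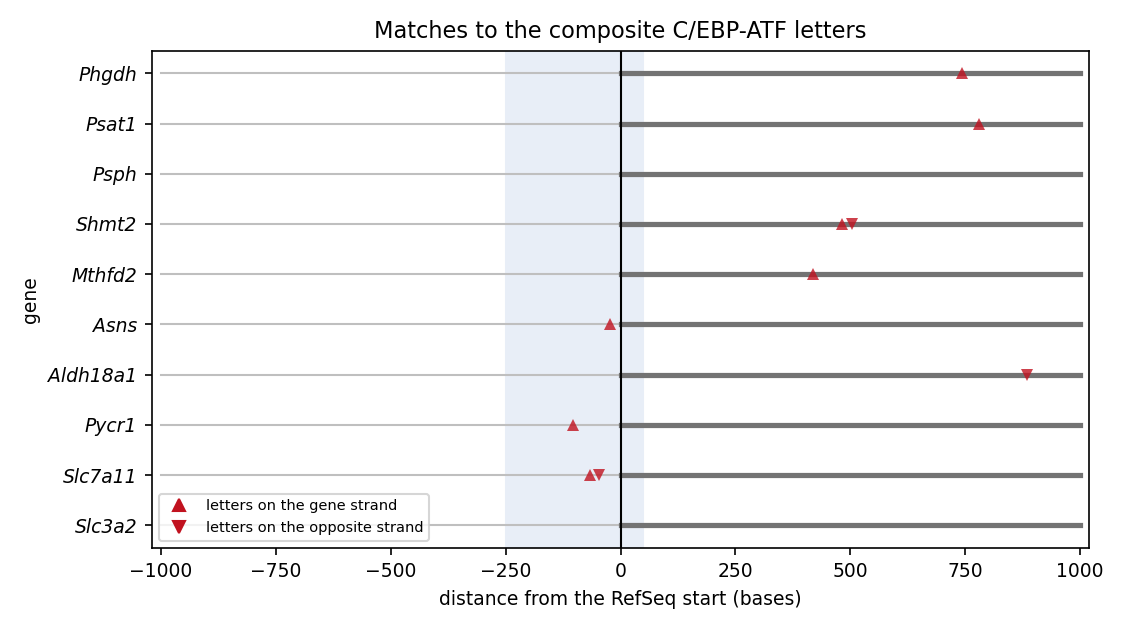
Matches to TGATGNAA from 1000 bases before to 1000 bases after the RefSeq start of each gene, with distance from the start in bases on the x axis and a row per gene. Triangles pointing up are matches on the strand of the gene, triangles pointing down are matches on the opposite strand, the thick line is the transcribed side, and the shaded band is the 300-base promoter. The matches of Asns, Pycr1 and Slc7a11 fall in the band, those of 5 other genes lie after the start, and Psat1 is drawn from the inner of its 2 starts.

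The promoters were otherwise varied. GC content over the 11 member promoters ran from 42.7% in Shmt2 to 66.7% at the inner start of Psat1. Its median of 56.0% lay between that of all promoters, 52.7%, and that of promoters whose genes reached a baseMean of 1, 59%. CpG dinucleotides ran from 4 in the Slc7a11 promoter to 30 at the inner Psat1 start, and the median of 15 lay between that of all promoters, 7, and that of promoters whose genes reached a baseMean of 1, 17. Slc7a11 had the CpG-poorest promoter of the 10 genes and, as described below, the lowest level. A link between CpG content and level was not tested.

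All 10 genes lie on the minus strand, while 50.1% of the genes in the table do. They are spread over 6 chromosomes, with Psat1, Aldh18a1 and Slc3a2 on chromosome 19, Slc7a11 and Phgdh on chromosome 3, Asns and Mthfd2 on chromosome 6, and the rest on 5, 10 and 11. Annotated gene spans ranged from 5322 bp for Shmt2 to 551089 bp for Slc7a11. Exons made up 58.4% of the Shmt2 span and 2.53% of the Slc7a11 span.

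The scale of a level per length rests on what was counted. Of 190 coding genes that lie wholly inside an intron of another coding gene on the same strand, 188 were listed at a baseMean of 0, although they share no exon with it. Among genes that touch only genes of the other strand, 1.42% were at 0. The counts therefore behaved as counts over whole gene spans, by strand, in which reads shared by 2 genes were dropped, and levels are given per kb of gene span, with values per kb of exon beside them where the order differs. No member touches another coding gene on its own strand. The 7 ES cell markers, Pou5f1, Sox2, Nanog, Klf4, Zfp42, Esrrb and Tfcp2l1, had baseMean values from 5985 to 72140. The 4 fibroblast, 4 hepatocyte and 3 blood markers lay between 0.382 and 80.9. Of 4 neuronal markers Tubb3 was listed at 0, as were other genes that overlap a neighbour, and Map2 was highest at 616.

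The 10 genes together held 0.105% of the summed baseMean of all genes, and Asns alone held 43.0% of that of the 10. Their baseMean ranged from 172 to 25203, a 146-fold range, with a median of 2813. The median over the 20157 genes with a baseMean above 0 was 421, and 9 of 10 members lay above it, all but Slc7a11. Per kb of gene span the range was from 0.313 to 1394, with a median of 136 beside 21.7 over all genes, and again all but Slc7a11 lay above the median. In bulk RNA, a level set by few cells and a low level per cell cannot be told apart.

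**Figure D2:**
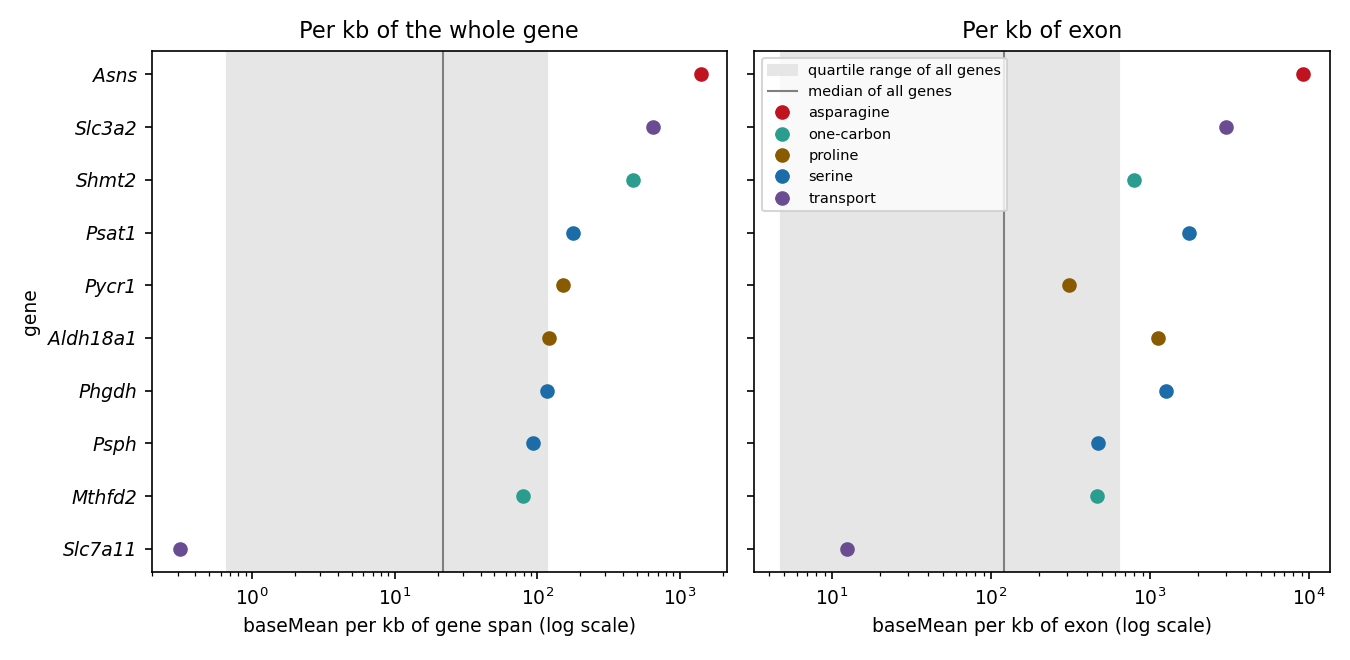
Level of each gene on a log scale, as baseMean per kb of gene span on the left and per kb of exon on the right, coloured by role, with 95% counting intervals that are mostly smaller than the points. The grey band spans the lower to the upper quartile of all genes and the line is their median. Asns and Slc3a2 are the highest on both scales and Slc7a11 the lowest, while Shmt2 and Pycr1 stand lower in the order per kb of exon.

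Asns, the asparagine synthetase, had the highest baseMean of the 10 and the highest level per kb on both length scales. It lies on chromosome 6 from 7675169 to 7693254 and had a baseMean of 25203 (counting interval 25127 to 25280), or about 502601 reads over all libraries. It ranked 242 among the 20157 genes and stood at the 98.8th percentile by baseMean and the 99.3rd per kb of gene span. Its level per kb of gene span, 1394, was 2.17 times that of Slc3a2, the next in order. That ratio depends on the start used for Slc3a2. The Slc3a2 span of 16488 bp begins 9472 bases before the RefSeq start of its promoter. The level from that inner start, which would be higher, was not computed. Among the 7 ES cell markers, 3 lay below Asns per kb of gene span, Esrrb at 401, Tfcp2l1 at 1261 and Klf4 at 1273. The other 4 lay above, from Pou5f1 at 1595 to Sox2 at 2910. Per kb of exon Asns stood at 9215, above all of them except Esrrb at 10656 and Zfp42 at 12345. The asparaginases, which break asparagine down, were far lower. Asrgl1 had a level of 66.9 per kb of gene span and Aspg of 11.4, so Asns was 20.8 and 123 times higher.

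Among 10 genes of asparagine, aspartate, cysteine, branched-chain and aromatic amino acid metabolism, Asns was the highest per kb on both length scales. Bcat1, which transfers amino groups of branched-chain amino acids, followed at 780 per kb of gene span, and its baseMean of 64229, counted over a longer gene, was larger than that of Asns. Cth, which makes cysteine from cystathionine, stood at 375 and Ass1, which joins citrulline and aspartate, at 335. Per kb of exon the order was Ass1 at 6998, Bcat1 at 6890 and Cth at 4143. In this list 8 of 10 genes lay above the median of all genes per kb of gene span. The liver enzyme Tat had a baseMean of 1.22.

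The 3 serine synthesis genes were all transcribed, with Psat1 the highest. Phgdh, the dehydrogenase that commits 3-phosphoglycerate to serine synthesis, lies on chromosome 3 from 98313170 to 98339990 and had a baseMean of 3145 (3119 to 3172). Psat1, the aminotransferase of the second step, lies on chromosome 19 from 15904678 to 15947337 and had a baseMean of 7525 (7483 to 7566). Psph, the phosphatase that releases serine, lies on chromosome 5 from 129765558 to 129787449 and had a baseMean of 2039 (2018 to 2061). The order of the 3 genes was the same per kb of gene span, with Psat1 at 176, Phgdh at 117 and Psph at 93.2, and per kb of exon. Psat1 was 1.504 times Phgdh and 1.89 times Psph per kb of gene span, each beyond counting error. The span of Psat1 used here starts 22278 bases before its first RefSeq start, and over the RefSeq span its level was 377 per kb.

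In the mitochondrial folate pathway the 2 members differed widely in level per kb. Shmt2, the mitochondrial serine hydroxymethyltransferase, lies on chromosome 10 from 127517123 to 127522444 and had a baseMean of 2482 (2458 to 2506). Mthfd2, the mitochondrial methylenetetrahydrofolate dehydrogenase and cyclohydrolase, lies on chromosome 6 from 83305691 to 83325908 and had a baseMean of 1613 (1594 to 1632). Shmt2 is the shortest of the 10 genes. Its 466 per kb of gene span was 5.85 times the 79.8 of Mthfd2, while per kb of exon it was 1.73 times higher. The Mthfd2 span begins 8304 bases before the RefSeq start of its promoter. The Mthfd2 level from that inner start, which would be higher, was not computed. The Shmt2 span overlaps Ndufa4l2 on the opposite strand, which had a baseMean of 81.1.

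Compared with their relatives, these mitochondrial enzymes took different positions. Shmt1, the cytosolic counterpart of Shmt2, had the larger baseMean, 5372. The order of the pair depended on the length used, since Shmt2 was 2.05 times Shmt1 per kb of gene span and 0.577 times Shmt1 per kb of exon. Mthfd2l, the second mitochondrial dehydrogenase, had a baseMean of 319, and Mthfd2 was 22.5 times higher per kb of gene span and 9.62 times higher per kb of exon. The cytosolic Mthfd1, which joins 3 folate activities in a single protein, had a baseMean of 20666 and was 4.02 times Mthfd2 per kb of gene span. Mthfd1l, the mitochondrial formyl-tetrahydrofolate synthetase that follows Mthfd2, had a baseMean of 17586. It was 1.14 times Mthfd2 per kb of gene span, with Mthfd2 taken from its outermost start, and 8.57 times per kb of exon. Of 22 genes of serine, glycine and folate metabolism, 19 lay above the median of all genes per kb of gene span, and Shmt2 was the highest of them. Per kb of exon Shmt2 ranked 11 of 22, and Mthfd1 at 4652 and Mthfd1l at 3965 were the highest. The list median per kb of gene span was 105. The 3 genes below were Mthfd2l at 3.54, Aldh1l2, a mitochondrial formyltetrahydrofolate dehydrogenase, at 14.2, and Sds, which degrades serine, at 0.287.

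**Figure D3:**
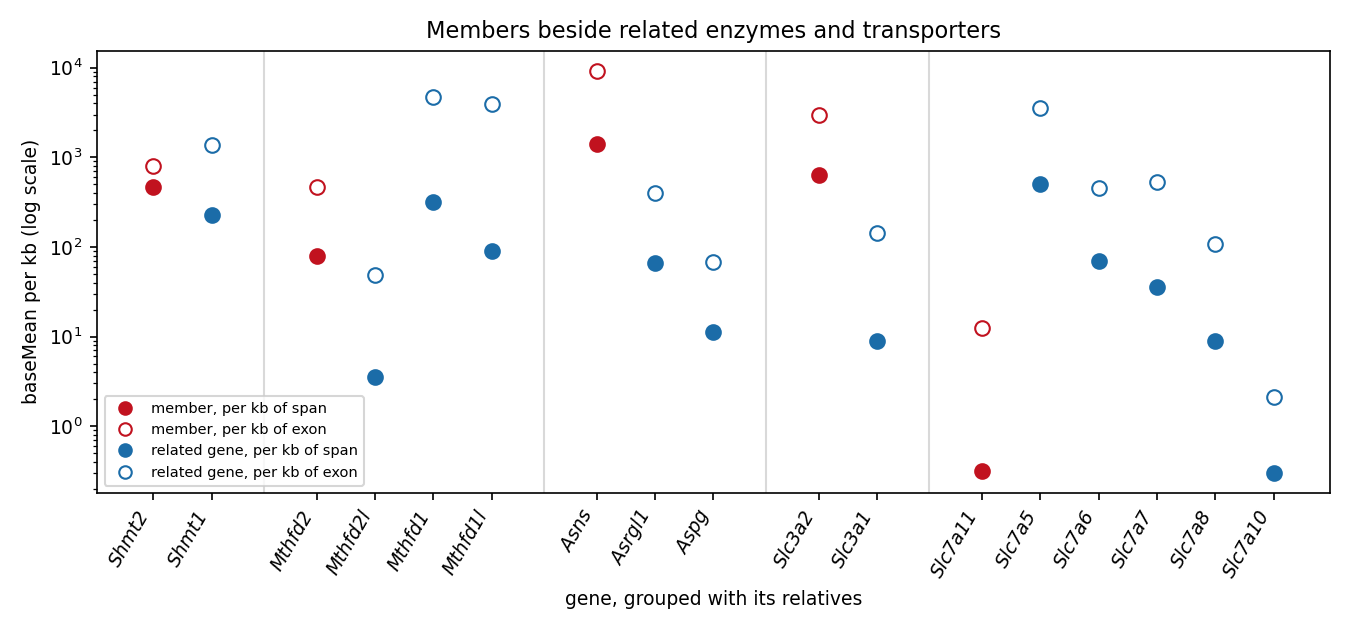
Level of members (red) and of related enzymes and transporters (blue) on a log scale, as baseMean per kb of gene span (filled) and per kb of exon (open). Grey lines separate the families. Mthfd2 lies above Mthfd2l, Asns above both asparaginases and Slc3a2 above Slc3a1 on both scales, while the order of Shmt2 and Shmt1 turns with the scale.

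Both proline genes lay above the upper quartile of all genes, 117.1, per kb of gene span. Aldh18a1, which makes the pyrroline-5-carboxylate precursor from glutamate, lies on chromosome 19 from 40550257 to 40588463 and had a baseMean of 4591 (4559 to 4624). Pycr1, the mitochondrial reductase of the last step, lies on chromosome 11 from 120635712 to 120643769 and had a baseMean of 1216 (1200 to 1233). Per kb of gene span Pycr1 at 151 was above Aldh18a1 at 120, whereas per kb of exon Aldh18a1 was 3.65 times higher. Of 13 measured genes of proline, ornithine and glutamate metabolism 11 lay above the median of all genes per kb of gene span, with Glud1, the glutamate dehydrogenase, highest at 565. Oat and Aldh4a1 were listed at 0, and each shares its span with another coding gene on the same strand.

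The 2 transport genes stood at opposite ends. Slc3a2, the heavy chain, lies on chromosome 19 from 8706882 to 8723369 and had a baseMean of 10586 (10536 to 10635), at the 98.1st percentile per kb of gene span. Slc7a11, the cystine light chain, lies on chromosome 3 from 49892526 to 50443614 and had a baseMean of 172 (166 to 179), about 3437 reads over all libraries. It stood at the 41.8th percentile by baseMean, the 31.3rd per kb of exon and the 20.2nd per kb of gene span. The annotated span of Slc7a11 is long, and over its RefSeq span of 134152 bp the level was 1.28 per kb, still the lowest of the 10. Slc3a2 was 61.4 times Slc7a11 by baseMean, with no correction for length.

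Of the other 5 light chains that pair with Slc3a2 and were listed, 4 had higher levels than Slc7a11. Slc7a10 was lower by baseMean and per kb of exon. For the span, Slc7a10 at 0.303 and Slc7a11 at 0.313 per kb were within counting error of each other. Among the 6 light chains Slc7a5, Slc7a6, Slc7a7, Slc7a8, Slc7a10 and Slc7a11, Slc7a5 held 81.3% of the summed level per kb of gene span, and Slc7a11 held 0.0508%. Per kb of exon the shares were 76.5% and 0.264%. Slc7a5 had a baseMean of 13290, Slc7a6 of 2073, Slc7a7 of 1745, Slc7a8 of 533 and Slc7a10 of 4.46. The level of Slc3a2 was 1.04 times the summed light chains per kb of gene span and 0.640 times per kb of exon. The first ratio takes the span of Slc3a2 from its outermost start. Slc3a1, the other heavy chain, had a baseMean of 322 and was 71.5 times lower than Slc3a2 per kb of gene span. Of 24 amino acid transporters 14 lay above the median of all genes per kb of gene span, where Slc38a2, a glutamine carrier, was highest at 680, followed by Slc1a5 at 642.4 and Slc3a2 at 642.0. Per kb of exon Slc7a5 at 3584 was highest, Slc3a2 at 2999.6 followed, and Slc38a2 at 949.7 ranked 7. Slc7a11 ranked 22 of 24 on both scales, per kb of gene span within counting error of Slc7a10.

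In order of level per kb of gene span the 10 genes ran Asns, Slc3a2, Shmt2, Psat1, Pycr1, Aldh18a1, Phgdh, Psph, Mthfd2 and Slc7a11. Spans were taken from the outermost annotated start, and the order from the inner starts of Slc3a2 and Mthfd2 was not computed. The counting intervals of neighbours did not overlap at any of the 9 steps, the smallest being the 1.02-fold step from Aldh18a1 to Phgdh. Whether neighbours differ beyond the spread between libraries cannot be told from a mean over libraries. The last step, from Mthfd2 to Slc7a11, was the widest at 255-fold, a value that rests on the long annotated span of Slc7a11, and that ratio was 61.8-fold over RefSeq spans and 37.4-fold per kb of exon.

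The PROMPTs of all 10 genes had reads. Their baseMean ranged from 0.845 to 27.5, with a median of 3.61. The median over the 23257 PROMPTs with a baseMean above 0 was 0.815, and all 10 lay above it, the lowest 3 within counting error. Over the 14195 of these whose symbol is in the gene table the median was 1.33, and 7 of 10 members lay above it. Against the 6343 PROMPTs whose genes had a baseMean from 1000 to 30000, a range that holds every member except Slc7a11, 5 of 10 lay above the median of 3.27. So as a set the PROMPTs stood above the median of the table and near the middle of those of genes in this broad range of levels.

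Pycr1 had the highest PROMPT, with a baseMean of 27.5 (25.02 to 30.1), or about 564 reads, at the 92.95th percentile. Slc3a2 followed with 11.6 (9.97 to 13.3). Mthfd2 had 6.28 (5.13 to 7.61), Psat1 had 5.27 (4.22 to 6.50) and Asns had 4.90 (3.89 to 6.09). These middle 3 had overlapping counting intervals and cannot be ordered. Psph had 2.33 (1.65 to 3.19) and Slc7a11 had 1.37 (0.863 to 2.06). Aldh18a1 had 0.946 (0.537 to 1.55), Shmt2 had 0.876 (0.484 to 1.46) and Phgdh had 0.845 (0.462 to 1.42). The last 4 overlapped in their intervals, and each rested on between about 17.3 and 28.1 reads over all libraries.

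**Figure D4:**
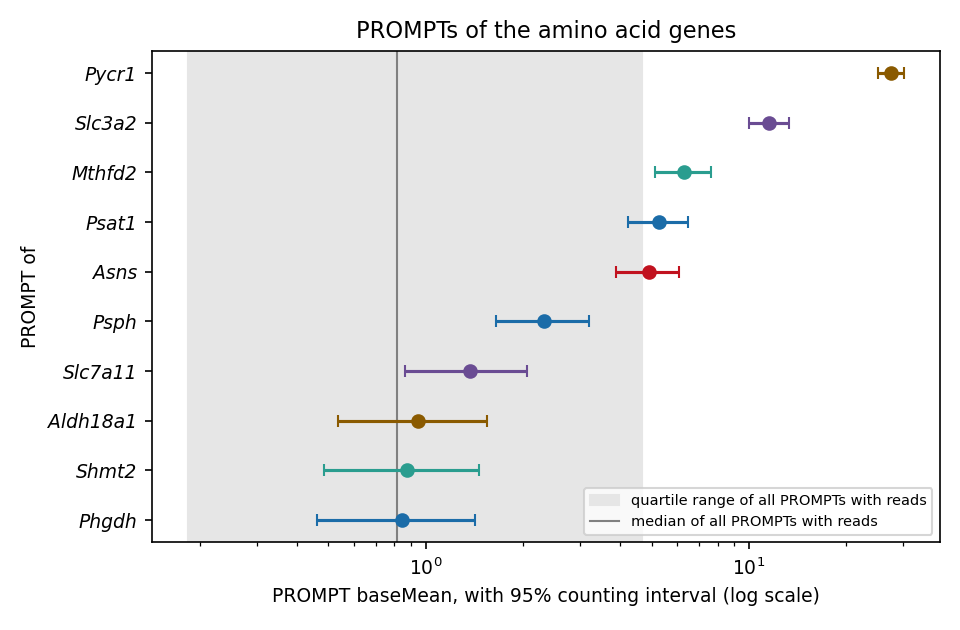
PROMPT baseMean of each gene on a log scale with 95% counting intervals, coloured by role as in the plot of gene levels. The grey band spans the lower to the upper quartile of the 23257 PROMPTs with a baseMean above 0 and the line is their median. The Pycr1 PROMPT at 27.5 stands apart from all others, and the intervals of the 3 lowest include the median of 0.815.

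The order of the PROMPTs did not follow that of the genes. Pycr1 ranked 9 among the 10 genes by baseMean and 5 per kb of gene span, and had the first of the PROMPTs, whereas Asns was first among the genes on both scales and had the fifth of the PROMPTs. The gene and PROMPT tables were scaled separately, so the ratio of a PROMPT to its gene was read only against the same ratio over 13699 pairs of the 2 tables. The Asns PROMPT reached 0.0194% of the gene, the Aldh18a1 PROMPT 0.0206%, the Phgdh PROMPT 0.0269% and the Shmt2 PROMPT 0.0353%. These were the lowest 4, at percentiles from 14.0 to 19.5. The Psat1 ratio was 0.0700%, the Slc3a2 ratio 0.109% and the Psph ratio 0.114%. Mthfd2 with 0.389%, Slc7a11 with 0.794% and Pycr1 with 2.26% lay above the median of all pairs, 0.340%. These ratios are not corrected for the length of the gene. With the gene level per kb of exon, Slc7a11 had the highest ratio of the 10, at the 78.8th percentile. Pycr1 followed at the 76.9th, and Mthfd2 stood at the 49.7th.

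Among the pairs whose genes had a baseMean from 1000 to 30000 the median ratio was 0.08115%, and 5 of 10 members lay above it. Pycr1 then stood at the 97.1st percentile. The 4 lowest ratios, those of Asns, Aldh18a1, Phgdh and Shmt2, stood at percentiles from 26.5 to 35.5. The Slc7a11 gene lies outside that range of levels, so its 89.2nd percentile there compares it with more transcribed genes. Within the serine branch the ratio of Psph was 4.25 times that of Phgdh, with counting intervals of 0.0810% to 0.156% and 0.0147% to 0.0451%. Within the proline branch the Pycr1 and Aldh18a1 intervals were 2.06% to 2.48% and 0.0117% to 0.0337%. Both ratios leave out gene length, and the spans are 8058 bp for Pycr1 and 38207 bp for Aldh18a1.

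**Figure D5:**
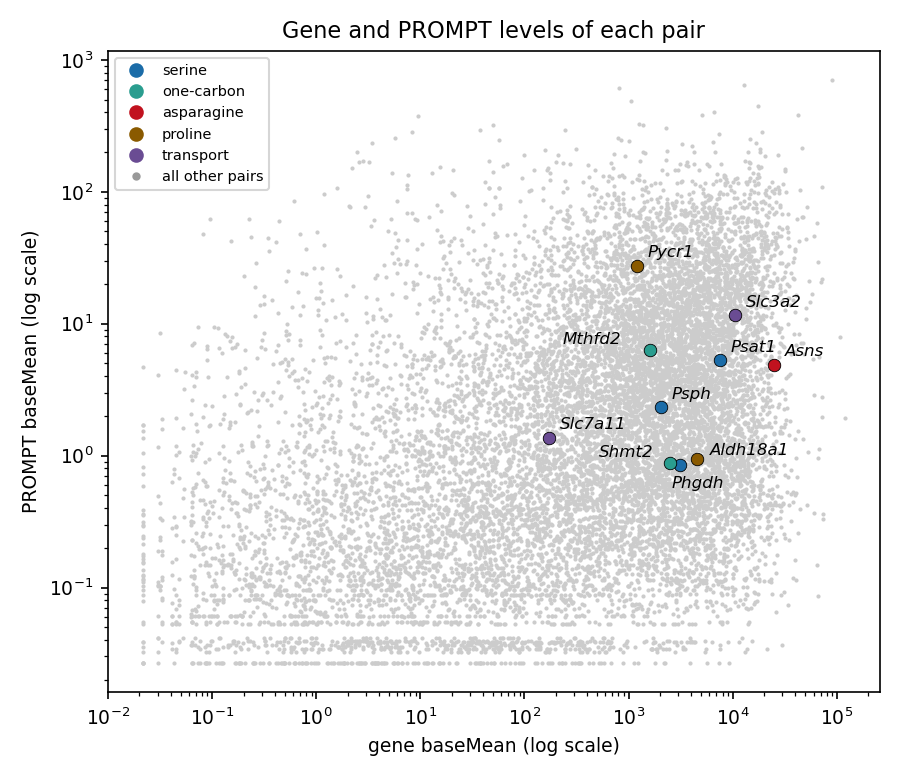
PROMPT baseMean against gene baseMean, both on log scales, for the 13699 pairs with both above 0 (grey) and the 10 amino acid genes (coloured by role). Pycr1 stands above and Asns to the right of the other members, and Phgdh, Shmt2 and Aldh18a1 lie together near a PROMPT baseMean of 0.9.

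Neighbouring genes bear on which reads a PROMPT window can hold. By the outermost annotated start, 4 of 10 members, and 25.2% of all coding genes, had a gene on the opposite strand within 1 kb before the start. For Mthfd2 this was Mob1a, 108 bases away, with a baseMean of 2157. For Slc3a2 it was the noncoding Snhg1, 106 bases away, and for Aldh18a1 the noncoding Gm27042, 972 bases away. For Psph it was Cct6a, with a baseMean of 6206, which starts inside the Psph span and runs on into the window. At the RefSeq starts of Mthfd2 and Slc3a2, which lie 8304 and 9472 bases inside the outermost starts, no such gene was annotated. The start used for each PROMPT was not given in the sources used here. The part of such neighbours in the PROMPT values was not tested. The Pycr1 window held no annotated gene on the opposite strand at either start.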

How the data were processed

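TT-seq of 18 libraries was used, 3 from each of 6 groups named by the sample labels. Per the methods, the authors trimmed reads with Trim Galore, kept unique STAR alignments to mm10, counted them by strand with featureCounts and compared groups with DESeq2, while the labels name HTSeq in place of featureCounts. The labels give 500 nM IAA and 500 mM 4-thiouridine, and the methods state both in µM. The signal used here is the baseMean that the authors deposited, a mean over libraries of counts divided by DESeq2 size factors, in separate tables for genes and PROMPTs. The remaining columns hold the authors' own comparison of SPT16-depleted with control libraries and were not used, so no test between groups was made.

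A feature with 1 read in 1 library has a baseMean set by that library's size factor alone. Such values were found for all 18 libraries in each table, searching up to 0.2 with a tolerance of 2.5e-06, and spanned 5.34 times in the gene table and 4.84 times in the PROMPT table, as a measure of the range of depth. On average 19.9 gene reads or 20.5 PROMPT reads made up 1 unit of baseMean. The 95% Poisson intervals rest on these weights and were tested on simulated data. Of the genes, 99.8% had lengths from Gencode vM21 on GRCm38, the same build. A percentile is the share of features with a baseMean above 0 that lay below a value. The length scale planned first was exons, and gene span was used after the check of nested genes. Promoter sequences were from RefSeq on GRCm38.p6 and were equal to the genome at all 32851 starts. The named genes were the 10 members, their paralogues and partners in 4 pathway lists, and genes that overlap a member or its window, of which 69 of 70 listed symbols were found and Pycr3 was not. Some listed items are not reported here. Members and lists were chosen with earlier results of these data known. The tools were scipy 1.17.1, pandas 2.3.3 and numpy 2.4.6 under Python 3.11.15, and matplotlib 3.10.9 for figures. Alternatives were other backgrounds, length scales, letters, windows and weights.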

Additional observations from a re-analysis of the deposited data

How the results depend on the processing

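The median percentile of the 10 genes was 74.5 among genes with a baseMean above 0. It was 70.9 against genes that reached a baseMean of 1, 76.5 against every gene in the table, 82.3 per kb of exon and 78.2 per kb of gene span. The median percentile of the 10 PROMPTs was 70.5. It was 37.0 against PROMPTs with a baseMean of at least 1, with the 3 members below 1 placed under all of them, 64.0 against PROMPTs whose symbol is in the gene table and 50.4 against PROMPTs of genes with a baseMean from 1000 to 30000. The median percentile of the PROMPT to gene ratio was 30.3. It was 28.1 with the gene level per kb of exon, 23.5 over pairs with both at least 1, which leaves 7 members, 20.0 over pairs with no gene on the opposite strand in the window, which leaves 6 members, and 51.1 over pairs whose genes had a baseMean from 1000 to 30000. The share of promoters with the letters, 3.97%, was 1.77% with the stricter TGATGNAAT or TGATGNAAC, 2.63% for genes that reached a baseMean of 1 and 23.2% in the window of 2000 bases. The members with the letters were 3, then 2 with the stricter letters and 8 in the wider window. Per kb of exon or with no length correction 7 of 10 members changed place in the order of levels, and over RefSeq spans none did. RefSeq spans equal the spans used for Slc3a2, Shmt2 and Aldh18a1 and are close for Mthfd2. They therefore cannot test the order from the inner starts of Slc3a2 and Mthfd2. Equal weights for the 18 libraries moved none of the 20 upper bounds outside the interval. The range from 1000 to 30000, the RefSeq and gene spans as percentiles and the wider window were chosen after seeing the data. No paired analysis was possible because the deposited means hold no value per library, and for the same reason no replicate could be left out.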
